A study of Mus musculus with 6 samples.

Results

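The genes described here are the 39 that carry glucose through uptake, glycolysis, lactate export, entry of pyruvate into mitochondria and the pentose phosphate pathway. They were chosen by name, and all 39 were found by symbol among the 48440 genes of the deposited table. Their RNA was measured in primary CD4+ T cells, helper lymphocytes, taken from wild-type mice (spleen and lymph nodes); strain, age and pooling of animals are not given in the labels. All cells of both groups had first been activated for 3 days on plate-bound antibodies to the T cell receptor complex (CD3) and to its costimulatory partner (CD28), and then expanded for 5 days in interleukin 2. The stimulated group (3 libraries) received both antibodies again for 4 hours, and the unstimulated group (3 libraries) was left at rest. The unstimulated cells were thus previously activated cells grown in a growth factor, not naive cells.

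Glycolysis splits glucose into pyruvate, which is either turned into lactate and exported or carried into mitochondria, where pyruvate dehydrogenase commits it to oxidation. The pentose phosphate pathway branches off at glucose 6-phosphate: its oxidative branch makes NADPH and its non-oxidative branch exchanges sugars between ribose phosphates and glycolysis. Activated T cells are known for fast glucose uptake and lactate release even where oxygen is plentiful. Many steps are served by several isozymes, products of different genes that catalyse the same reaction with different kinetics or control.

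The libraries held 29897720 to 30252923 counted reads each, and 13314 genes passed the filter on low counts, among them all 39. Levels are normalised read counts (CPM, scaled by library size with TMM factors); values after ± are the SD over 3 libraries. A positive log2 fold change means higher in stimulated cells; it is given with its SE and was tested with edgeR's quasi-likelihood test and Benjamini-Hochberg adjustment over the 13314 genes. The helper T cell markers Cd3e (95.3 to 102 and 225 to 255 CPM) and Cd4 (317 to 349.9 and 948 to 1027 CPM) were abundant in stimulated and unstimulated libraries, and of the 7 markers of these cells 1 rose and 6 fell. Of 7 B cell markers 6 fell; their sum was 731 to 1281 CPM in stimulated and 1408 to 2861 CPM in unstimulated libraries, most of it Ighm, and 30.2 to 32.2 against 73.5 to 74.5 CPM without it. The sums of the myeloid list (2.93 to 3.65 and 6.22 to 8.24 CPM), the natural killer list (0.638 to 2.42 and 5.76 to 17.9 CPM) and the red cell list (0.248 to 0.826 and 0.604 to 1.92 CPM) were low and also lower after stimulation. S100a8 of the myeloid list and Hba-a2 of the red cell list had no read. Of the 7 myeloid markers 2 fell, of the 4 natural killer markers 1 and of the 6 red cell markers 1, and the others did not pass the test or the filter. The CD8 pair summed to 20.7 to 25.8 and 20.9 to 24.8 CPM, with Cd8a higher and Cd8b1 lower. The part of these cells in the changes below was not tested.

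Of the 39 genes 18 rose, 12 fell and 9 did not pass the test at an adjusted p of 0.05; of all tested genes 77.5% were called in either direction. These counts are close to those of the whole transcriptome, in which 38.4% of the tested genes rose and 39.1% fell, against 46.2% and 30.8% of the 39. The median change of the 39 was 0.17, against -0.04 over all tested genes. Against a change of 2-fold (glmTreat), 7 of the 39 rose and 6 fell, or 17.9% and 15.4%, where the background was 17.4% and 18.2% (35.6% in either direction). The stimulated and unstimulated libraries did not overlap for 31 of the 39, or 79.5%, against 79.8% of all tested genes. The set as a whole thus did not stand out by its counts, and the description below turns on which isozyme of each step moved and in which direction. In bulk RNA a change in the cells that express a gene and a change in RNA per cell cannot be told apart.

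**Figure D1:**
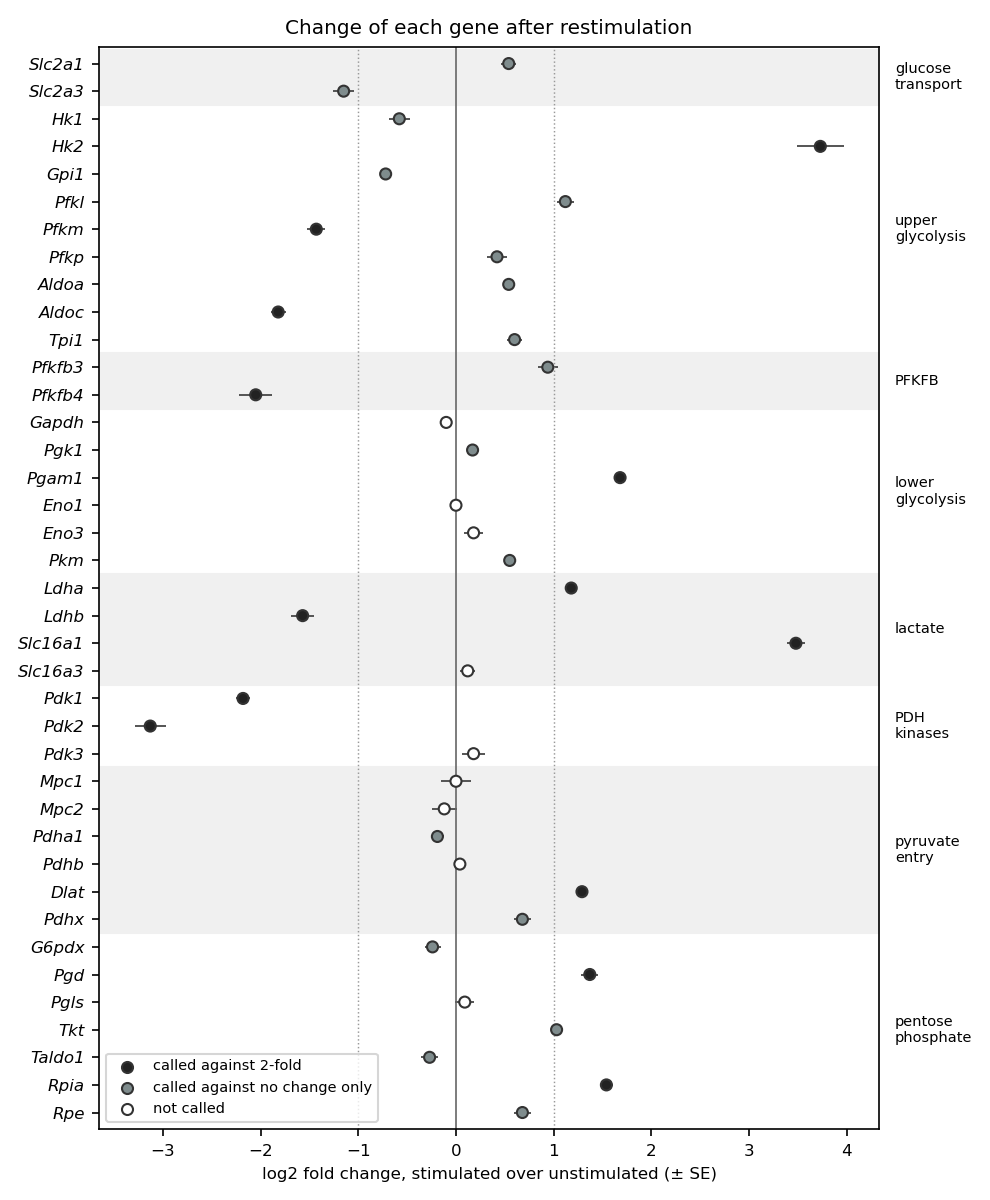
Log2 fold change of each of the 39 genes, stimulated over unstimulated, with its SE as a bar, ordered by step of the pathway; dotted lines mark 2-fold. Hk2 (3.73) and Slc16a1 (3.48) lie farthest to the right and Pdk2 (-3.13) farthest to the left, while 18 genes rose and 12 fell.

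**Figure D2:**
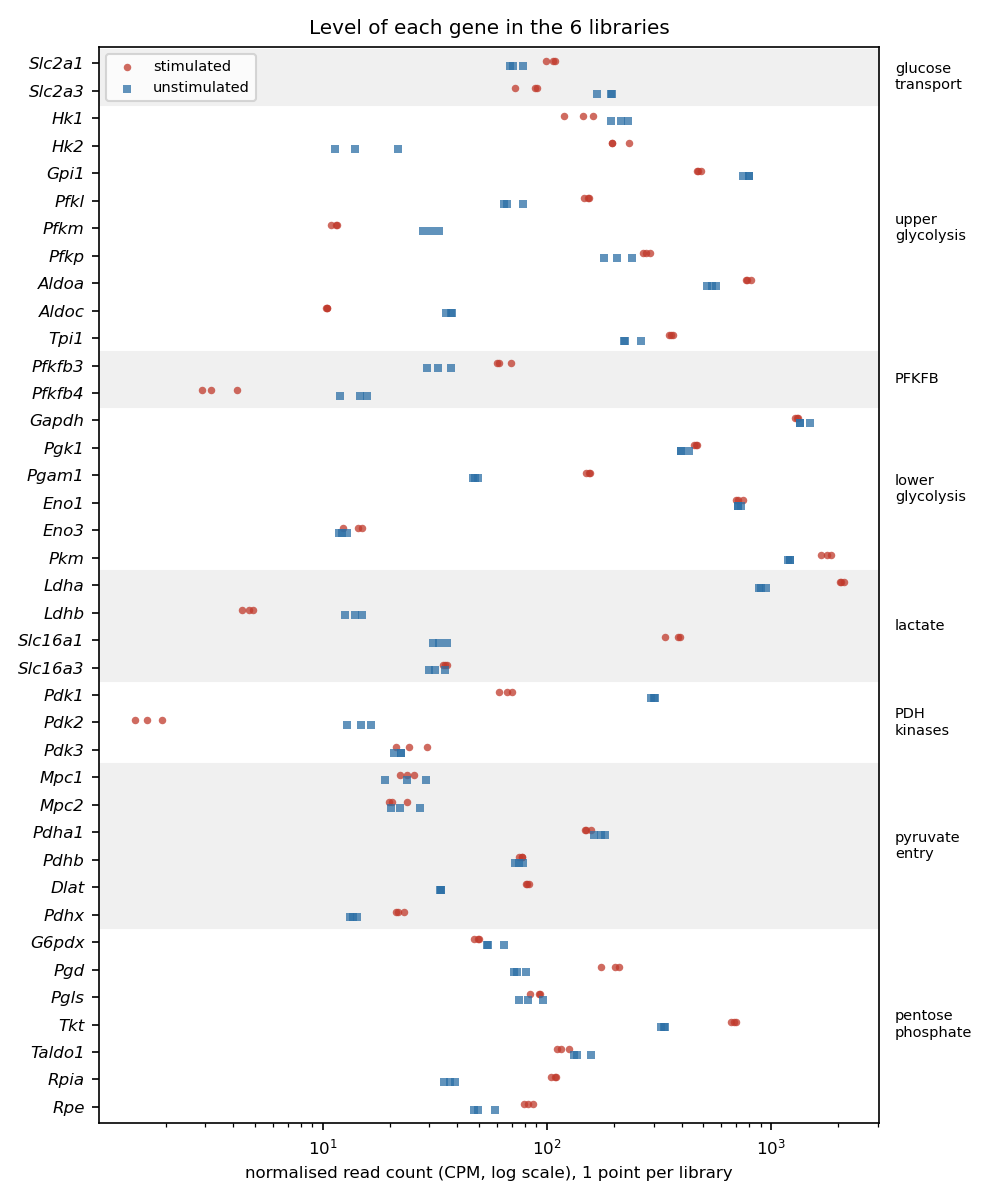
Normalised read count of each of the 39 genes on a log axis, 1 point per library, 3 stimulated (circles) and 3 unstimulated (squares). The groups are separate for 31 genes, with the widest gaps for Hk2, Slc16a1 and Pdk2.

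The largest rises were those of hexokinase 2, which commits glucose to the cell by phosphorylating it, and of the monocarboxylate transporter MCT1, which carries lactate and pyruvate across the plasma membrane. Hk2 (ENSMUSG00000000628, chr6:82725025-82774454 of GRCm38, minus strand) had 232, 196 and 196 CPM in stimulated libraries, against 21.7, 14.0 and 11.4 CPM in unstimulated ones. Its lowest stimulated library was thus far above its highest unstimulated one, and the change was 13.2-fold (log2 fold change 3.73, SE 0.24; edgeR, adjusted p = 3.5e-06). Slc16a1, which encodes MCT1 (ENSMUSG00000032902, chr3:104638668-104658462, plus strand), had 393, 387 and 339 CPM in stimulated libraries, against 36.0, 31.1 and 33.0 CPM in unstimulated ones. This was a rise of 11.2-fold (log2 fold change 3.48, SE 0.092; edgeR, adjusted p = 6.6e-09), with no overlap. Among the 13314 tested genes ordered from the largest rise down, Hk2 stood at place 294 and Slc16a1 at place 341.

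The promoters of 4 members are shown: those of Hk2 and Slc16a1, with the largest rises, of Pdk2, with the largest fall, and of Ldha, the most abundant member per kilobase in stimulated cells (Gapdh in unstimulated cells). Each run covers 250 bases before to 50 bases after a transcription start in RefSeq (GRCm38.p6), 5′ to 3′ on the gene's strand: chr3:104638414-104638713 (plus strand) for Slc16a1, chr6:82774405-82774704 (minus) for Hk2, chr7:46845554-46845853 and chr7:46846832-46847131 (plus) for the 2 starts of Ldha, and chr11:95041322-95041621 and chr11:95040826-95041125 (minus) for the 2 starts of Pdk2. Capitals mark ACGTG on either strand, a form of the core of the hypoxia response element. Other forms of that core were not marked or counted. Where ACGTG and its reverse complement CACGT overlap they form CACGTG, the E-box that MYC and related factors can bind.
Slc16a1: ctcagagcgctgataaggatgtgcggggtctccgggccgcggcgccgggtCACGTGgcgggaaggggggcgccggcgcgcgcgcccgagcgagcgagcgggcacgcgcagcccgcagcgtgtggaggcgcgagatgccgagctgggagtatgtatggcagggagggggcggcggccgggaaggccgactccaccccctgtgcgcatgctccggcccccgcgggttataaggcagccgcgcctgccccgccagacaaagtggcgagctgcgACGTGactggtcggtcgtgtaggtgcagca
Hk2: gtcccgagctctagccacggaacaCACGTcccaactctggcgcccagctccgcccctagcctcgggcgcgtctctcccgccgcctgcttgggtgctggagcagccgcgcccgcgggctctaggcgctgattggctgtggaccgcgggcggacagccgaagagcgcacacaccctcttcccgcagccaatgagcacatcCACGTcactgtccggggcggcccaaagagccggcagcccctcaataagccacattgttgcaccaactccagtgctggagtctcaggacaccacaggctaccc
Ldha start 1: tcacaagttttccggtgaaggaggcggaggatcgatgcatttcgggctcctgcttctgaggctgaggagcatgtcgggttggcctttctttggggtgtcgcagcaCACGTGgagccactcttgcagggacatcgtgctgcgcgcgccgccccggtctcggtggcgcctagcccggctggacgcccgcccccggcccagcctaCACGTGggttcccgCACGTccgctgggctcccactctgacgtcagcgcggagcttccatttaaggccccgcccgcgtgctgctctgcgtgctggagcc
Ldha start 2: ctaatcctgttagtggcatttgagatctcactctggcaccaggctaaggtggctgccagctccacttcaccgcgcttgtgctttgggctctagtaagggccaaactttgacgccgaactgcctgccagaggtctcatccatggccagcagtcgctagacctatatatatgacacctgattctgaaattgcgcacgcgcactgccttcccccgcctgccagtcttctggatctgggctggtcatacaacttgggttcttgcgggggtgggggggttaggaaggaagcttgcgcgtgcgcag
Pdk2 start 1: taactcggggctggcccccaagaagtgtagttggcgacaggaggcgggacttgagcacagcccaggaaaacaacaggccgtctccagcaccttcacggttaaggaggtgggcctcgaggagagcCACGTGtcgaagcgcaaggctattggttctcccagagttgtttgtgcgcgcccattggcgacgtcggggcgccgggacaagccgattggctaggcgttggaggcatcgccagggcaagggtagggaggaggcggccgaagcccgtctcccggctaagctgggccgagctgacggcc
Pdk2 start 2: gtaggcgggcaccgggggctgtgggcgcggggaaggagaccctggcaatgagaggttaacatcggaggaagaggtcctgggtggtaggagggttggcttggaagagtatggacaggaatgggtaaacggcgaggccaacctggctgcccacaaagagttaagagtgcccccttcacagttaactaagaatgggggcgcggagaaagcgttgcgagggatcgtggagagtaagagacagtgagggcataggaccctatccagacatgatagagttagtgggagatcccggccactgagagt

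CACGTG began 200 bases before the start in Slc16a1, 145 and 48 bases before the upstream start of Ldha and 126 bases before the upstream start of Pdk2. The windows of the downstream starts of Ldha and Pdk2 held neither motif, and the Hk2 window held ACGTG at 2 places and no CACGTG. The upstream starts of Ldha and Pdk2 lay 35 and 17 bases from the nearest transcript start of the gene in GENCODE M21, and their downstream starts coincided with one. Counts per gene do not show which start was used. The promoter table held 54 windows for 38 of the 39 genes; Slc2a3 was not matched. CACGTG stood in 5 of the 54, or 9.26%, against 7.15% of all 32851 windows of the table. ACGTG, read on both strands, stood in 21, or 38.9%, against 19.6%, and the windows of the 39 genes were richer in G and C (median 61.2%, against 52.7% over all windows). Both the genes that rose and those that fell beyond 2-fold held CACGTG, in 2 of 9 windows and in 2 of 12. A match of letters is a description and does not show binding.

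Of the glucose transporters, Slc2a1, which encodes GLUT1, rose and Slc2a3, which encodes the high-affinity GLUT3, fell. Slc2a1 had 109, 99.1 and 107 CPM in stimulated libraries, against 78.4, 70.6 and 68.7 CPM in unstimulated ones, a log2 fold change of 0.54 (SE 0.076; edgeR, adjusted p = 1.6e-04). Slc2a3 had 90.9, 88.3 and 72.2 CPM in stimulated libraries, against 196, 194 and 167 CPM in unstimulated ones, a log2 fold change of -1.15 (SE 0.11; edgeR, adjusted p = 8.5e-06). Neither pair of groups overlapped. Per kilobase of exon, Slc2a1 made up 72.2% ± 2.89 of the reads of both transporters in stimulated cells and 44.7% ± 1.57 in unstimulated cells (SD, n = 3 each). Over all 11 listed transporters of the Slc2a family its share was 53.9% ± 1.1 and 34.7% ± 1.96, and Slc2a6 held 23.2% ± 3.39 and 6.58% ± 5.18.

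Shares of this kind were computed within each library, so they do not depend on the scaling between libraries. With 3 libraries against 3 the exact two-sided permutation test cannot give a p below 0.1. Of the 20 shares of 9 enzymes or transporters, 17 did not overlap between the groups, where the levels of 79.8% of all tested genes did not. Each of these 17 reached exact permutation p = 0.1 (adjusted p = 0.118 over the 20). Shares within a family add up to the whole, so those of a pair of isozymes mirror each other. The 20 shares are thus not independent. They are given below as sizes with their spread. Each share is taken over the members of the family only, not over its other isozymes.

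Hk1 fell where Hk2 rose. Hk1, the housekeeping isozyme, had 161, 119 and 146 CPM in stimulated libraries, against 230.0, 214 and 193 CPM in unstimulated ones, a fall of 1.50-fold (log2 fold change -0.58, SE 0.11; edgeR, adjusted p = 0.00133). With the rise of Hk2, the Hk2 share of hexokinase reads per kilobase was 67.4%, 70.1% and 65.8% in stimulated libraries and 11.9%, 8.56% and 7.78% in unstimulated ones. Of these 2 genes Hk2 had more reads in every stimulated library and Hk1 in every unstimulated one, per kilobase and in CPM. The length used is that of all annotated exons joined. Other lengths would change the shares and could change the order of the transcripts.

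**Figure D3:**
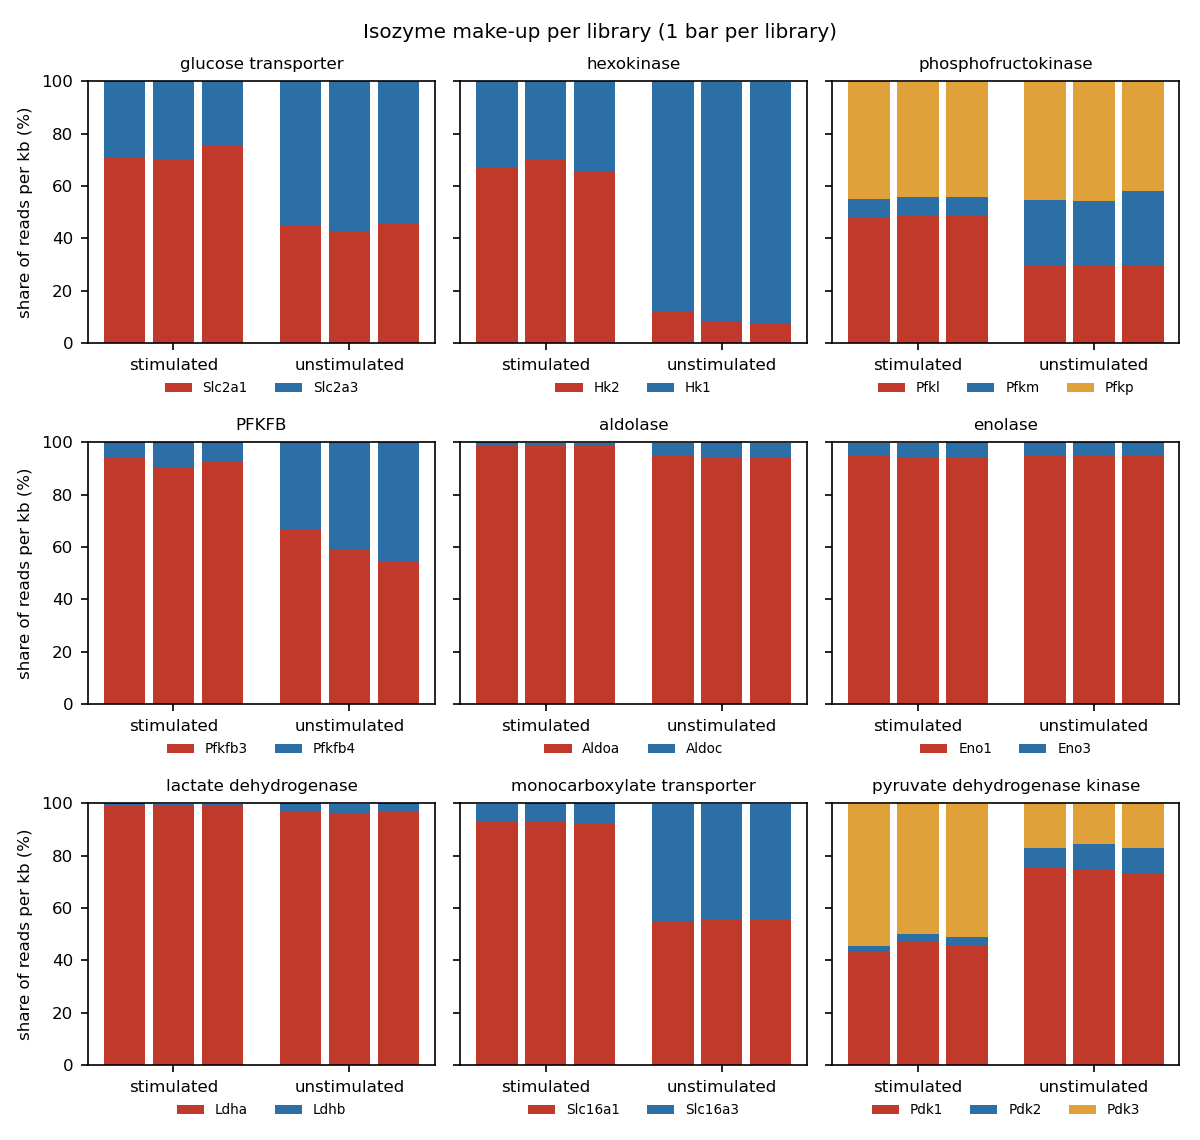
Share of each isozyme in the reads per kilobase of exon of its enzyme or transporter (percent), 1 bar per library, the 3 stimulated libraries on the left of each panel. Hk2 makes up 65.8 to 70.1% of hexokinase reads in stimulated libraries and 7.78 to 11.9% in unstimulated ones, whereas the enolase bars look alike in both groups.

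Phosphofructokinase, the main control point of glycolysis, is built from liver, muscle and platelet subunits, named after the tissues where each is prominent. The liver subunit Pfkl had 155, 147 and 153 CPM in stimulated libraries, against 78.5, 66.5 and 64.5 CPM in unstimulated ones, a log2 fold change of 1.12 (SE 0.086; edgeR, adjusted p = 2.4e-06). The muscle subunit Pfkm had 11.5, 10.9 and 11.6 CPM, against 33.0, 28.1 and 30.6 CPM, a log2 fold change of -1.43 (SE 0.091; edgeR, adjusted p = 6.9e-07). These 2 subunits moved in opposite directions, and the platelet subunit Pfkp also rose (log2 fold change 0.42, SE 0.1; edgeR, adjusted p = 0.00403; 279 ± 10.2 and 209 ± 29.7 CPM). The Pfkl share was 48.4% ± 0.263 in stimulated and 29.7% ± 0.141 in unstimulated cells, and the Pfkm share 7.22% ± 0.161 and 26.1% ± 1.96. The Pfkp share overlapped between groups, at 44.4% ± 0.4 and 44.2% ± 2.08, and the sign of its difference depended on the length used for Pfkp.

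The bifunctional PFKFB enzymes make and break fructose 2,6-bisphosphate, the strongest activator of phosphofructokinase. Pfkfb3, the isozyme with the highest kinase activity, rose to 63.6 ± 4.69 CPM in stimulated cells, against 33.1 ± 4.07 CPM in unstimulated cells (edgeR, adjusted p = 2.4e-05). Pfkfb4 fell to 2.90, 4.14 and 3.17 CPM in stimulated libraries, against 12.0, 14.7 and 15.8 CPM in unstimulated ones, a change of 4.16-fold (log2 fold change -2.05, SE 0.17; edgeR, adjusted p = 4.1e-06). Of the reads per kilobase of these 2 genes Pfkfb3 held 92.3% ± 1.66 in stimulated and 60.0% ± 6.19 in unstimulated cells. With Pfkfb1 and Pfkfb2 counted too it held 86.3% ± 2.22 and 52.1% ± 6.52.

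Gpi1, the isomerase between glucose and fructose phosphates, fell: it had 471, 475 and 486 CPM in stimulated libraries, against 798, 803 and 755 CPM in unstimulated ones, a log2 fold change of -0.72 (SE 0.055; edgeR, adjusted p = 2.3e-06). Aldolase, which splits the sugar, was nearly all Aldoa in both groups. Aldoa rose to 793 ± 21.3 CPM in stimulated cells, against 545 ± 25.0 CPM in unstimulated cells, while the minor form Aldoc, best known from brain, fell to 10.5, 10.4 and 10.5 CPM, against 35.6, 37.4 and 37.9 CPM, a log2 fold change of -1.82 (SE 0.076; edgeR, adjusted p = 5.2e-08). Aldoc made up 1.17% ± 0.0283 of aldolase reads per kilobase in stimulated cells and 5.71% ± 0.389 in unstimulated cells. Tpi1, triose phosphate isomerase, rose 1.52-fold (358 ± 7.95 and 236 ± 23.5 CPM; edgeR, adjusted p = 1.0e-04).

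In lower glycolysis, where each triose yields ATP, 3 of 6 genes rose and none fell, against 38.4% and 39.1% of all tested genes. Pgam1, the phosphoglycerate mutase, had 156, 149.7 and 155 CPM in stimulated libraries, against 49.4, 46.8 and 47.9 CPM in unstimulated ones, a log2 fold change of 1.68 (SE 0.063; edgeR, adjusted p = 2.9e-08). Gapdh (log2 fold change -0.10, SE 0.057), which acts upstream of it, and Eno1 (-0.00, SE 0.054), the next enzyme, did not pass the test (edgeR, adjusted p = 0.137 and 0.957). Gapdh had 1327, 1306 and 1279.9 CPM in stimulated libraries, against 1345, 1356 and 1495 CPM in unstimulated ones, and fell with library size alone (log2 fold change -0.24; edgeR, adjusted p = 0.00506; range 0.00506 to 0.321). Eno1 had 717, 699.9 and 750.3 CPM in stimulated libraries, against 717, 717 and 738 CPM in unstimulated ones, and the groups overlapped. The minor enolase Eno3, best known from muscle, was at 13.9 ± 1.35 and 12.3 ± 0.566 CPM and was not called either (log2 fold change 0.18; edgeR, adjusted p = 0.143), though it passed as higher without stimulated replicate 1 (0.26, adjusted p = 0.0487; range 0.0487 to 0.74). Pkm, pyruvate kinase, rose 1.47-fold to 1862, 1684 and 1780.1 CPM, against 1219, 1193 and 1215 CPM (edgeR, adjusted p = 1.2e-05); counts per gene do not separate its splice forms. Pgk1, which makes the first ATP of the pathway, had 467, 456 and 462 CPM, against 431, 397 and 399.5 CPM. It rose by 0.17 (SE 0.059; edgeR, adjusted p = 0.024), a call lost with library size alone (adjusted p = 0.608, log2 fold change 0.03), with no filter (0.0546) and without stimulated replicate 1 (0.0526), stimulated replicate 3 (0.0508), unstimulated replicate 2 (0.117) or unstimulated replicate 3 (0.0714). Its adjusted p ran from 0.00955 to 0.608 across 15 alternatives.

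Lactate dehydrogenase is a tetramer of A subunits, which favour making lactate, and B subunits, which favour pyruvate. Ldha had 2033, 2059 and 2117 CPM in stimulated libraries, against 951, 883 and 901 CPM in unstimulated ones, a log2 fold change of 1.18 (SE 0.052; edgeR, adjusted p = 6.9e-08). Ldhb had 4.36, 4.88 and 4.72 CPM, against 12.6, 15.0 and 13.9 CPM, a log2 fold change of -1.57 (SE 0.12; edgeR, adjusted p = 2.3e-06). Ldhb was already the minor form at rest: it made up 0.471% ± 0.0238 of the reads per kilobase in stimulated cells and 3.11% ± 0.38 in unstimulated cells. Per kilobase of exon Ldha was the most abundant of the 39 transcripts in stimulated cells (625 CPM per kb, against 275 in unstimulated cells). Pkm followed there at 355 and Gapdh at 316, and in unstimulated cells Gapdh led at 338. The length is that of all annotated exons joined, and other lengths could change this order. Without length, Ldha, Pkm and Gapdh stood at 2069.9, 1775 and 1304 CPM in stimulated cells, and Gapdh led at 1398 CPM in unstimulated cells.

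Whereas Slc16a1 rose 11.2-fold, Slc16a3, which encodes MCT4, the exporter typical of strongly glycolytic tissue, was not called (35.9, 35.2 and 34.6 CPM in stimulated libraries, against 35.2, 30.0 and 31.9 CPM in unstimulated ones; edgeR, adjusted p = 0.183). The Slc16a1 share of both transporters per kilobase was 92.7% ± 0.453 in stimulated cells and 55.3% ± 0.181 in unstimulated cells. Near-identical sequence elsewhere in the annotation (95% identity over 500 bases) was found for 9 members: 86 genes matched Gapdh, and 1 to 4 matched each of Gpi1, Pgk1, Pgam1, Eno1, Pkm, Ldha, Ldhb and Pdhb, with reads of at most 0.457% of the member's own. Other annotated genes overlapped over 10% of the exon bases of 8 members: Mpc1 (23.1%, 4930506C21Rik), Pgls (20.6%, Fam129c on the same strand), Rpe (17.9%, Kansl1l), Pdha1 (16.1%, Map3k15), Pkm (15.3%, Gm49759 on the same strand), G6pdx (13.6%, Ikbkg), Gpi1 (11.5%, Gm26762) and Pfkm (10.2%, Gm26513 on the same strand). Reads from such stretches cannot be told apart by gene, which limits the levels given for these members. How reads that match several places were counted is not stated, so the levels of genes with near-identical copies, Gapdh most of all, are uncertain.

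Of the 3 kinases that switch off pyruvate dehydrogenase by phosphorylation, Pdk1 and Pdk2 fell. Pdk1 had 70.4, 61.3 and 66.2 CPM in stimulated libraries, against 302, 303 and 293 CPM in unstimulated ones, a fall of 4.54-fold (log2 fold change -2.18, SE 0.073; edgeR, adjusted p = 1.6e-08). Pdk2 had 1.45, 1.65 and 1.93 CPM, against 12.8, 16.4 and 14.9 CPM, a fall of 8.74-fold (log2 fold change -3.13, SE 0.16; edgeR, adjusted p = 1.9e-07). Pdk3 did not pass the test, with 29.1, 21.3 and 24.4 CPM, against 22.5, 20.9 and 22.5 CPM (log2 fold change 0.18; edgeR, adjusted p = 0.183). Without stimulated replicate 2, its lowest stimulated library, it passed as higher (0.29, edgeR, adjusted p = 0.0431; range 0.0431 to 0.76). Of the reads per kilobase of the 3 kinases, Pdk3 thus held 51.8% ± 2.39 in stimulated cells and 16.6% ± 0.849 in unstimulated cells. Pdk1 held 45.4% ± 1.88 and 74.4% ± 0.788. Which of them led in stimulated cells depends on the length used (7779 bases of joined exons for Pdk1, 2561 for Pdk3). In CPM Pdk1 stayed above Pdk3 there, at 65.9 and 24.9 CPM. The summed kinase level was 101, 84.2 and 92.5 CPM, against 338, 340.0 and 330.3 CPM.

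Of the 6 genes of the mitochondrial pyruvate carrier and the dehydrogenase complex, 2 rose, 1 fell and 3 were not called. The shares that rose and fell were 33.3% and 16.7%, against 38.4% and 39.1% of all tested genes. Dlat, the acetyltransferase core of pyruvate dehydrogenase, rose to 83.5, 82.1 and 81.2 CPM in stimulated libraries, against 33.4, 33.8 and 33.6 CPM in unstimulated ones, a log2 fold change of 1.29 (SE 0.06; edgeR, adjusted p = 9.7e-08). Pdhx, which anchors another subunit to that core, rose 1.60-fold (22.0 ± 0.986 and 13.7 ± 0.557 CPM; edgeR, adjusted p = 6.1e-05). Of the subunits that carry out the decarboxylation, Pdhb was not called (edgeR, adjusted p = 0.595) and Pdha1 fell by 0.19 (SE 0.069; edgeR, adjusted p = 0.0343). The Pdha1 call was lost with RLE normalization (adjusted p = 0.0554), DESeq2 (0.0531), no filter (0.0612) and without stimulated replicate 2 (0.125), stimulated replicate 3 (0.103) or unstimulated replicate 2 (0.13), with a range of 0.00203 to 0.13. Both carrier subunits, Mpc1 (23.8 ± 1.76 and 23.9 ± 5.00 CPM) and Mpc2 (21.4 ± 2.20 and 23.2 ± 3.68 CPM), overlapped between groups and were not called (edgeR, adjusted p = 0.983 and 0.407).

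In the pentose phosphate pathway 4 of 7 genes rose and 2 fell (57.1% and 28.6%, against 38.4% and 39.1% of all tested genes). With so few genes such counts do not set the pathway apart. Its entry enzyme G6pdx, which makes the first NADPH, was not among the genes that rose: it had 50.1, 49.6 and 47.3 CPM in stimulated libraries, against 64.3, 54.7 and 54.3 CPM in unstimulated ones, a log2 fold change of -0.24 (SE 0.082; edgeR, adjusted p = 0.0248). The call was lost with DESeq2 (adjusted p = 0.0512) and without stimulated replicate 2 (0.0648), stimulated replicate 3 (0.0865) or unstimulated replicate 1 (0.0776, log2 fold change -0.15), with a range of 0.00167 to 0.0865. Pgd, the other NADPH-producing enzyme of the oxidative branch, had 211, 175 and 201 CPM, against 80.8, 71.7 and 74.0 CPM, a log2 fold change of 1.37 (SE 0.088; edgeR, adjusted p = 7.5e-07). Pgls, the lactonase between these enzymes, was not called (89.9 ± 5.00 and 84.5 ± 10.5 CPM; edgeR, adjusted p = 0.418). The oxidative branch thus held a gene that rose beside 1 that fell slightly and 1 that was not called.

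In the non-oxidative branch Rpia, which makes ribose 5-phosphate, the sugar of nucleotides, rose 2.91-fold, with 110.3, 109 and 105 CPM in stimulated libraries, against 37.2, 38.9 and 35.0 CPM in unstimulated ones, a log2 fold change of 1.54 (SE 0.068; edgeR, adjusted p = 7.0e-08). Tkt, transketolase, had 662, 684 and 697 CPM, against 325, 335 and 339 CPM, a log2 fold change of 1.03 (SE 0.055; edgeR, adjusted p = 2.3e-07). Rpe, the epimerase, rose 1.60-fold (83.0 ± 3.62 and 51.8 ± 6.08 CPM). Transaldolase went the other way: Taldo1 fell by 0.27 (SE 0.086; 118 ± 7.31 and 142 ± 13.6 CPM; edgeR, adjusted p = 0.0176), a call lost without stimulated replicate 1 (adjusted p = 0.0503) or stimulated replicate 2 (0.0824), with a range of 0.00147 to 0.0824.

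Summed over the genes of each step, the largest differences lay in lactate, in the kinases of pyruvate dehydrogenase and in the pentose phosphate pathway. Such sums follow their most abundant genes and do not show that all genes of a step moved. In stimulated cells Ldha gave 2069.9 of the 2482 CPM of lactate and Tkt 681 of the 1325 CPM of the pentose phosphate pathway. In unstimulated cells Pdk1 gave 299 of the 336 CPM of the kinases. The lactate genes summed to 2466, 2486 and 2495 CPM in stimulated libraries, against 1035, 959 and 979.7 CPM in unstimulated ones, a log2 difference of 1.33. The pentose phosphate genes summed to 1325 ± 25.0 CPM in stimulated and 782 ± 18.2 CPM in unstimulated cells (0.76), with 0.62 in the oxidative and 0.81 in the non-oxidative branch. Both glucose transporters together were lower in CPM, at 189 ± 10.5 and 258 ± 20.4 CPM (-0.45). This sum takes no account of length, and Slc2a3 has 7245 bases of joined exons, against 3506 for Slc2a1. Per kilobase Slc2a1 stood at 30.0 in stimulated and 20.7 in unstimulated cells, and Slc2a3 at 11.6 and 25.6. A fall of their summed transcripts per kilobase was not tested. Upper and lower glycolysis differed by only 0.18 and 0.22, and by 0.05 and 0.08 with library size alone, so that these differences depend on the scaling. The same holds for the pyruvate entry genes, at 0.15 and 0.01. All 39 genes took 1.09%, 1.06% and 1.11% of the counted reads in stimulated libraries, against 0.919%, 0.899% and 0.921% in unstimulated ones. The exact two-sided permutation test gave p = 0.1, the smallest this design allows, for 13 of the 14 sums compared (adjusted p = 0.108). For the pyruvate carrier the exact two-sided permutation test gave p = 0.9. Several of these sums share genes, so the 14 are not independent. The levels of 79.8% of all tested genes did not overlap between the groups either. As percent of counted reads, upper glycolysis, lower glycolysis, pyruvate entry and the pyruvate dehydrogenase subunits overlapped between the groups. Apart from the pyruvate carrier, the other sums stayed separate on that scale.

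**Figure D4:**
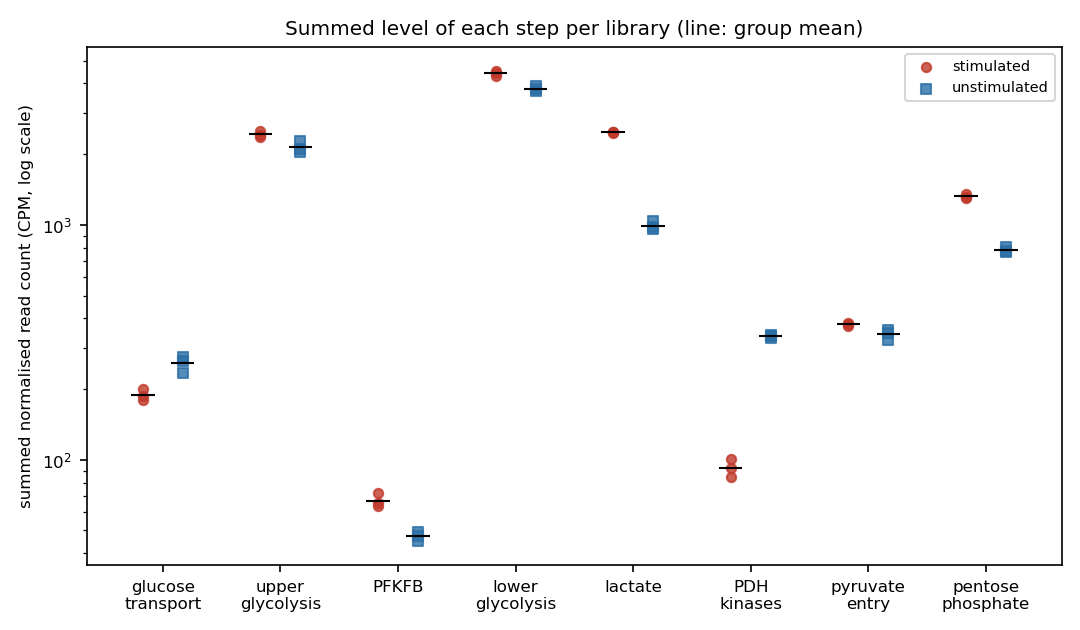
Summed normalised read count of the genes of each step (CPM, log axis), 1 point per library with the group mean as a line, stimulated left of unstimulated. Lactate genes sum to 2466 to 2495 CPM in stimulated and 959 to 1035 CPM in unstimulated libraries, and the kinases of pyruvate dehydrogenase to 84.2 to 101 and 330.3 to 340.0 CPM.

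A list of 60 further genes of the same pathways, the isozymes and neighbours of the 39, held 59 that matched the table; 33 passed the filter, of which 13 rose and 16 fell (39.4% and 48.5%, against 38.4% and 39.1% of all tested genes). Of the 26 that did not pass, Pklr, the pyruvate kinase of liver and red cells, and the testis forms Pgk2 and Ldhc had no read. Tigar, whose product lowers fructose 2,6-bisphosphate, rose 5.45-fold, with 45.7, 45.6 and 48.4 CPM in stimulated libraries, against 7.16, 7.39 and 11.1 CPM in unstimulated ones. Prps1, which turns ribose 5-phosphate into the precursor of nucleotides, rose 3.79-fold (155 ± 8.71 and 41.0 ± 3.22 CPM). Gpd2, the mitochondrial glycerol phosphate dehydrogenase, rose 3.61-fold and Adpgk, an ADP-dependent glucokinase, 3.49-fold.

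Among the further genes that fell, the transketolase-like Tktl1 had 0.267 ± 0.103 CPM in stimulated and 5.46 ± 1.59 CPM in unstimulated cells (log2 fold change -4.33, SE 0.35). Pck2, the mitochondrial enzyme that makes phosphoenolpyruvate, fell 13.8-fold to 8.61, 9.72 and 10.1 CPM, against 123, 132 and 136 CPM. The sugar transporter Slc2a8 fell 8.94-fold, and Slc2a9 fell to 3.67 ± 0.396 CPM, against 25.7 ± 2.56 CPM, in the same direction as Slc2a3. Slc2a6, picked after its values were seen, was higher in each stimulated library (37.3, 37.6 and 49.6 CPM, against 27.1, 7.61 and 5.43 CPM) but did not pass (edgeR, adjusted p = 0.0559). The adjusted p of the 8 called genes named here lay between 5.2e-09 and 3.6e-05 in edgeR's test.

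**Figure D5:**
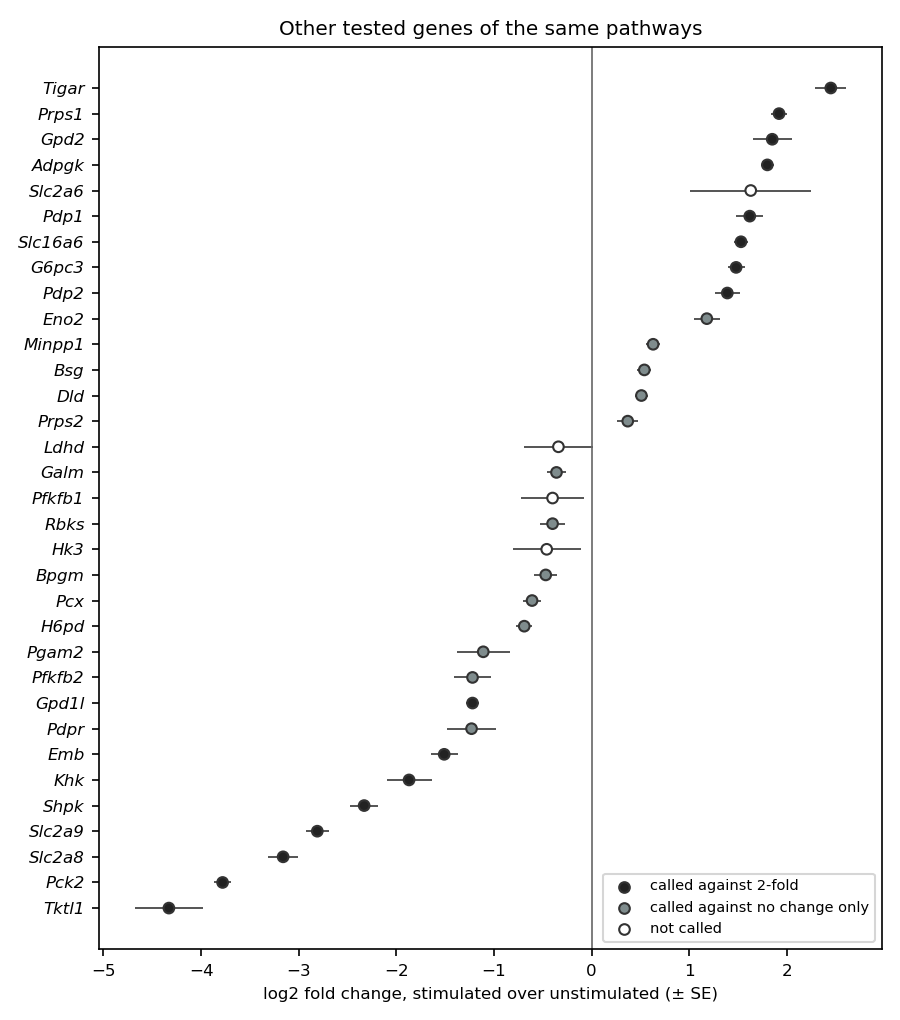
Log2 fold change, stimulated over unstimulated, with SE for the 33 tested genes among the further pathway genes, ordered by size. Tigar (2.45) is at the top and Tktl1 (-4.33) at the bottom, with 13 that rose and 16 that fell.

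Several of these genes act on the members directly and were picked after their values were seen. The phosphatases Pdp1 and Pdp2, which undo the phosphorylation that the Pdk kinases put on pyruvate dehydrogenase, rose 3.08-fold and 2.63-fold (edgeR, adjusted p = 4.7e-06 and 7.9e-06), while Pdpr, a regulatory subunit of the phosphatase, fell 2.34-fold (edgeR, adjusted p = 0.00277). Pdk4 did not pass the filter, at 33 reads over the stimulated and 1 over the unstimulated libraries. Of the partner proteins that bring monocarboxylate transporters to the surface, Bsg (basigin) rose 1.46-fold and Emb (embigin) fell 2.85-fold (edgeR, adjusted p = 1.0e-04 and 1.4e-05).

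Of 5 known regulators of these genes, MYC and HIF1 drive many glycolytic genes, TXNIP holds back glucose uptake, and MondoA (Mlxip) with its partner Mlx senses glucose phosphates. Hif1a rose to 709, 551 and 594 CPM in stimulated libraries, against 421, 358 and 311 CPM in unstimulated ones, a log2 fold change of 0.77 (SE 0.13; edgeR, adjusted p = 6.0e-04). Mlxip rose 1.58-fold (163 ± 9.79 and 104 ± 4.86 CPM), and Mlx was not called (39.8 ± 1.90 and 42.0 ± 1.78 CPM; edgeR, adjusted p = 0.342), though it passed as lower with library size alone (log2 fold change -0.22, adjusted p = 0.0175; range 0.0175 to 0.72). Myc rose 8.05-fold and Txnip fell 15.9-fold (edgeR, adjusted p = 2.5e-08 and 3.9e-08). Any part of these regulators in the changes of the 39 genes was not tested.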

How the data were processed

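RNA sequencing of 6 libraries was used. The authors deposited raw counts of reads per Ensembl gene in 1 table of 48440 genes. The build GRCm38 and the tools HTSeq, STAR 2.5.2a and DESeq2 are named, with no role, per the submitters' processing notes. The annotation release, the strand setting and the treatment of multiply matching reads were not given in the sources used here. Without strand, overlapping and antisense genes (such as Ikbkg at G6pdx or Map3k15 at Pdha1) cannot be told apart. Symbols, coordinates and exon lengths came from GENCODE M21 (GRCm38).

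The counts were tested with edgeR 4.0.16 (R 4.3.3): TMM, filterByExpr, robust quasi-likelihood test, two-sided, with group as the only term and Benjamini-Hochberg adjustment over 13314 genes. glmTreat tested against 2-fold. Isozyme shares used counts per exon length, and sums and shares were compared by exact two-sided permutation over libraries. Near-identical copies were searched with BLAST 2.17.0 (95% identity over 500 bases). The alternatives were RLE, library size alone, library sizes without the 20 most abundant genes, no filter, 1 CPM in 3 libraries, DESeq2 1.42.0, limma-voom (limma 3.58.1), the replicate number as a block, an adjusted p of 0.01 and leaving out each library. Members and lists were chosen with earlier results of these data known. Of the further pathway genes with at least 1 CPM, the 4 largest rises and 4 largest falls were named. The pipeline was run on simulated counts of 13314 genes, of which 200 were changed. It recovered 96% of the 2-fold changes and 74% of the smaller ones, with 9 false calls. In the real data 77.5% of the genes were called, so the simulation does not test normalization or false calls under so broad a change.

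The labels do not say that replicates came from separate mice or cultures, so p-values reflect library-to-library spread alone, possibly technical. A floor of 3 counts was 0.0992 to 0.1 CPM and covers counting error only.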

Additional observations from a re-analysis of the deposited data

How the results depend on the processing

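Of the 30 called members 26 kept their call and direction in all 15 alternatives. The other 4 (Pgk1, Pdha1, G6pdx and Taldo1), all with small changes, lost the call in some, as given with their values, and all 4 at an adjusted p of 0.01. Over the alternatives that leave out a library, 17 to 19 members rose, 9 to 12 fell and 13 to 14 passed the test against 2-fold. The median change of the members was 0.03 with library size alone, which moved the median of all genes by -0.14, and 0.14 to 0.19 without a library. With library size alone Eno1, like Gapdh and Mlx, passed as lower (-0.14, adjusted p = 0.0499; range 0.0499 to 0.996). Changes near 0 that were not called turned sign. Eno1 was 0.02 with RLE and DESeq2 and 0.00039 with no filter. Mpc1 was 0.02 with RLE, DESeq2 and limma-voom, 0.01 with the replicate block and 0.002 with no filter. With library size alone Slc16a3 was -0.02, Pdhb -0.10 and Pgls -0.05. Without a library Eno1 ran from -0.02 to 0.03, Mpc1 from -0.14 to 0.14, Mpc2 from -0.22 to 0.00027, the pyruvate carrier sum from -0.14 to 0.09 and the Pfkp share difference from -1.02 to 0.827 points. That share difference was -3.08 points with the longest transcript as length and -4.32 with no length correction; the other 19 share differences kept their sign. Counting all listed isozymes of a family, an alternative added after the data were seen, turned no sign; the Eno1 share of enolase was then 93.0% ± 0.472 in stimulated and 94.4% ± 0.188 in unstimulated cells, with no overlap.

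The labels do not say whether the replicate numbers mark pairs, and the data do not settle it. The correlation of deviations from the group mean was 0.361, 0.0845 and 0.38 for the same number. Between different numbers it ran from -0.363 to -0.0117, so each library correlated best with its own number. With the replicate block 18 members rose and 12 fell, as without it, and 15 rather than 13 passed the test against 2-fold. That test under the alternatives, and the sums of sub-steps, were added after the data were seen. A level under the floor of 3 counts cannot be told from 0 at this depth; all 39 members lay above it in every library.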
